A study of Homo sapiens with 12 samples.

Results

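HL-60 cells held for 2 d in all-trans retinoic acid (ATRA) were compared with untreated HL-60 cells across all genes. The comparison uses 6 of the 12 RNA-seq libraries of the study, 3 labelled RA2d and 3 labelled RA0h, which is every library of those groups. HL-60 is an established human acute myeloid leukemia line of promyelocyte-like cells, and the study used ATRA to drive it toward neutrophils. All cells grew in Iscove's medium with fetal bovine serum and antibiotics. The RA0h cells (0 h) had no ATRA, and the RA2d cells (2 d) had 1 µM ATRA. The other 6 libraries, after 4 h and 4 d in 1 µM ATRA, entered the fit and are given only as levels beside those of 2 d. Untreated cells kept in culture for 2 d are not among these libraries, so the drug and the time in culture cannot be told apart. The labels do not say whether replicates were separate cultures, and the p-values therefore measure the spread between these samples. A single leukemic line was used, so the values describe that line.

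Retinoic acid enters the nucleus and binds receptors of the RAR family, which sit on DNA as partners of RXR receptors. Ligand binding swaps co-repressors for co-activators at target genes, among them genes that clear retinoic acid itself. In promyelocytes this program is known to slow division and to build the equipment of a phagocyte: receptors, adhesion molecules, the respiratory burst oxidase and lysosomal enzymes. Neutrophil granules form in waves, with primary granule proteins made in promyelocytes and those of secondary and tertiary granules made later.

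Gene reads came to 10843263, 12077671 and 10223158 in the 0 h libraries and 11562933, 13021237 and 7866757 in those of 2 d. Levels are counts scaled to a common total of gene reads (CPM) after TMM scaling, listed in the order of replicates 1, 2 and 3, and they compare libraries within a gene, not genes with each other. The biological coefficient of variation came to 26.7% among the 0 h libraries and 10.9% among those of 2 d. On the first principal component of these 6 libraries, with 76.2% of the variance, the groups lay apart. On the second, with 18.5%, 0 h replicate 2 lay at -35.62 and its mates at 23.96 and 17.48. That library also departed from its mates with the GC content of genes, with a slope of 0.4842 on the log2 scale per 10 points, against -0.3471 and -0.1371 in replicates 1 and 3 and -0.07527 to 0.05816 in the 2 d libraries. Values of named genes that change their call or move by over 1.5 times without 0 h replicate 2 are given with and without it. Counts that move by over 1.5 times are also given with an offset for the GC content and length of genes, and without the 3 libraries that stand apart in the series (0 h replicate 2, 4 h replicate 1 and 4 d replicate 1). In 4 h replicate 1 this was in genes with a read (22265, against 15446 and 15245 in its mates) and in reads outside genes (28.15%, against 17.19% and 13.97%). By GC slope 4 d replicate 1 (0.3104) departed from its mates (-0.2072 and -0.1032). So did 4 h replicate 3 (0.3615, against -0.2728 and -0.08871), which that setting kept. MPO, ELANE, PRTN3, AZU1, CTSG, MYB and CD33, markers of promyelocytic HL-60 cells, had reads in all 6 libraries.

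Of 26364 genes in the files, 12671 had enough reads to be tested, and 4512 of them (35.6%) differed between 2 d and 0 h at an adjusted p under 0.05, here called (quasi-likelihood test of edgeR, Benjamini-Hochberg adjustment, n = 3 per group). Changes are given as log2 of 2 d over 0 h, and a value given with ± in brackets or after "rose by" is a log2 fold change with its SE, while CPM means are given with their SD. The SE was derived as the absolute log2 fold change over the square root of the F statistic of the test. Where a group has few reads the fold change depends on a prior count, which this SE does not cover. Called genes were split into 2142 that rose (16.9% of those tested) and 2370 that fell (18.7%), and the median log2 fold change of all tested genes was -0.02. At least 2-fold changes made up 2122 of the calls (16.7%), with 1042 genes higher (8.22%) and 1080 lower (8.52%). The largest changes were more often rises: 353 called genes were at least 4-fold higher and 265 at least 4-fold lower, and 89 were at least 16-fold higher against 25 at least 16-fold lower. Leaving out 1 library at a time gave 3124 calls (without 2 d replicate 1) to 4954 calls (without 4 d replicate 1). Libraries of 4 h and 4 d bear on this comparison through the estimate of spread, the filter on low counts and the scaling. Genes whose 3 libraries at 2 d all lay above, or all below, the 3 libraries at 0 h numbered 6459 (51% of those tested).

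**Figure D1:**
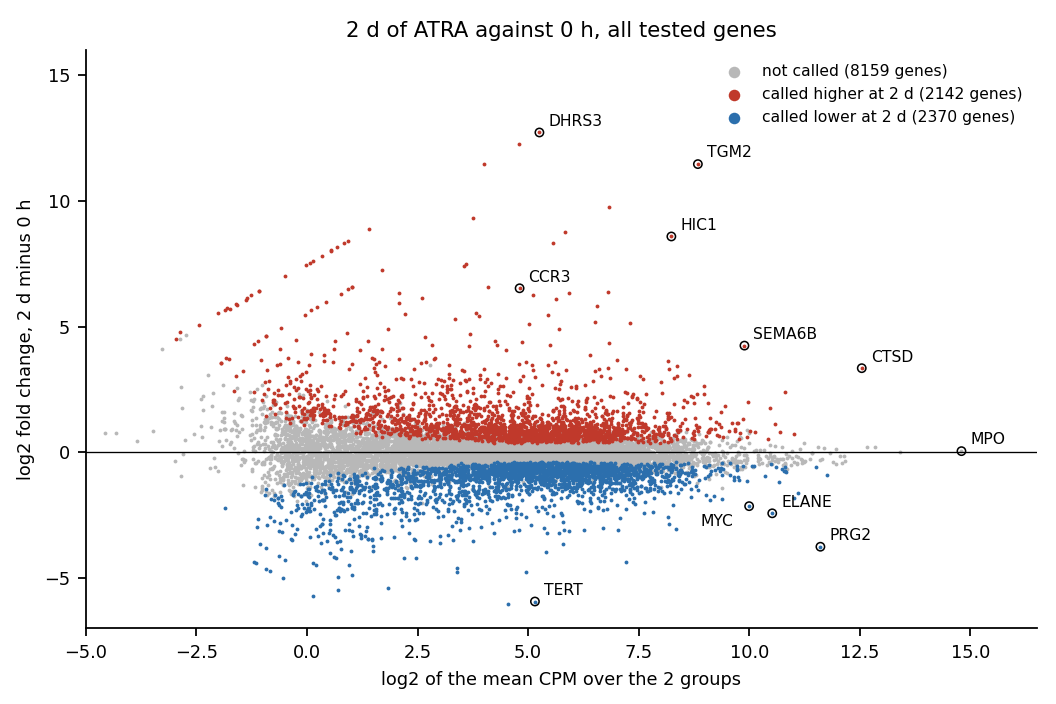
Each point is 1 of the 12671 tested genes, with the log2 of its mean CPM over 0 h and 2 d on the x axis and its log2 fold change (2 d minus 0 h) on the y axis; 2142 genes called higher are red, 2370 called lower are blue and the rest are grey. Rises reach farther from 0 than falls, and the straight lines of points at low CPM are genes with no or few reads in one group, whose fitted fold change depends on a prior count.

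Where the mean reached 10 CPM, the steepest rises with reads in both groups included TGM2, HIC1, IHH and PALLD. TGM2, tissue transglutaminase, which cross-links proteins, stood at 0.184, 0.0909 and 0.681 CPM at 0 h and 1075, 985 and 684 CPM at 2 d. The groups lay far apart, with a log2 fold change of 11.47 ± 0.46 (SE; adjusted p = 3.25e-09) and 12.59 without 0 h replicate 3. HIC1, a zinc finger repressor of transcription, stood at 1.10, 2.0 and 1.56 CPM at 0 h and 746, 514 and 546 CPM at 2 d, a log2 fold change of 8.59 ± 0.35 (adjusted p = 3.25e-09). IHH, the secreted ligand Indian hedgehog, rose from 0.245 ± 0.136 CPM at 0 h to 114 ± 15.7 CPM at 2 d (log2 fold change 8.78 ± 0.39). PALLD, the actin cross-linker palladin, rose from 0.278 ± 0.157 CPM at 0 h to 93.8 ± 10 CPM at 2 d (8.33 ± 0.40). In each of these 4 genes the groups did not overlap, a condition of the ranking.

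CCR3 and CCL24, a chemokine receptor and a chemokine, were also among the steep rises. CCR3, the eotaxin receptor, stood at 0.551, 0.909 and 0.292 CPM at 0 h and 49.1, 59.8 and 57.3 CPM at 2 d (log2 fold change 6.53 ± 0.29, adjusted p = 6.65e-09). CCL24, an eotaxin and so a ligand of CCR3, stood at 0.459, 0.363 and 0.195 CPM at 0 h and 34.7, 38.1 and 28.8 CPM at 2 d (6.59 ± 0.41, adjusted p = 1.13e-07). Receptor and ligand were thus both near 0 in all 3 libraries at 0 h and well above it in all 3 at 2 d. CADM1, an adhesion molecule of the immunoglobulin family, rose by 7.42 ± 0.49 on the log2 scale, and by 8.63 without 0 h replicate 2, the library that held most of its few reads at 0 h.

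Several transcripts went from no or almost no reads at 0 h to a clear signal at 2 d, so that only bounds or wide ratios can be given. Taking 3 reads per group as the floor, DHRS3, which reduces retinaldehyde and so lowers the supply of retinoic acid, was at least 816-fold higher. It had 0 reads in all 3 libraries at 0 h and 74.7, 75.6 and 78.7 CPM at 2 d. PTGES, a prostaglandin E synthase, was at least 599-fold higher (53.3, 61 and 51.3 CPM at 2 d), and BATF2, a basic leucine zipper factor, at least 340.3-fold higher (33.7, 29.9 and 32). MLXIPL, a transcription factor that responds to glucose, with 1 read at 0 h, gave a ratio of 849 (95% counting interval from 152 to 33558). TPPP3, a tubulin-binding protein, also had 1 read (ratio 204, interval 36.3 to 8110.5), in 0 h replicate 2, and was at least 44.8-fold higher without that library. SCN4B, a sodium channel subunit, had 3 reads (ratio 89.2, interval 30.2 to 435). The reads of MLXIPL and SCN4B were all in 0 h replicate 1. In all, 58 of the genes that rose had 3 reads or fewer over the 0 h group, while 16 of those that fell had 3 or fewer over the 2 d group. These bounds and intervals cover counting error only.

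The list of the retinoid response counted 12 of 22 tested members higher and 2 lower, with a median log2 fold change of 1.21 against -0.02 over all genes. Counts of this and every later list stand beside 16.9% higher and 18.7% lower among all tested genes. Both shares moved with the setting, to 11.4% and 12.7% without 2 d replicate 1. Without the 3 libraries that stand apart they were 22% and 24%. Besides TGM2, HIC1 and DHRS3, it held CD38, an ectoenzyme that consumes NAD, at 1.19, 1.09 and 2.14 CPM at 0 h and 135, 123 and 103 CPM at 2 d (log2 fold change 6.35 ± 0.34, adjusted p = 3.14e-08). CYP26A1, which oxidizes retinoic acid, had no read at 0 h and 3.16, 3.93 and 1.60 CPM at 2 d, at least 33.1-fold higher. Of the receptors, RARB rose by 3.33 ± 0.36 on the log2 scale from a low level (0.341 ± 0.0424 CPM at 0 h to 3.51 ± 0.535 CPM at 2 d), RARG fell (-1.03 ± 0.27) and RXRA fell (-1.10 ± 0.18). RXRA stood at 256, 365 and 318 CPM at 0 h and 167, 141 and 131 CPM at 2 d, with no overlap between the groups. RARA, the receptor usually tied to promyelocytic leukemia, was not called (61.6, 123 and 77.3 CPM at 0 h and 128, 104 and 119 CPM at 2 d, adjusted p = 0.233), and its groups overlapped. At 0 h, replicate 2 stood highest, and without it RARA was called, with a log2 fold change of 0.75 (adjusted p = 0.0254). It was also called with the GC and length offset (0.49, adjusted p = 0.0208).

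**Figure D2:**
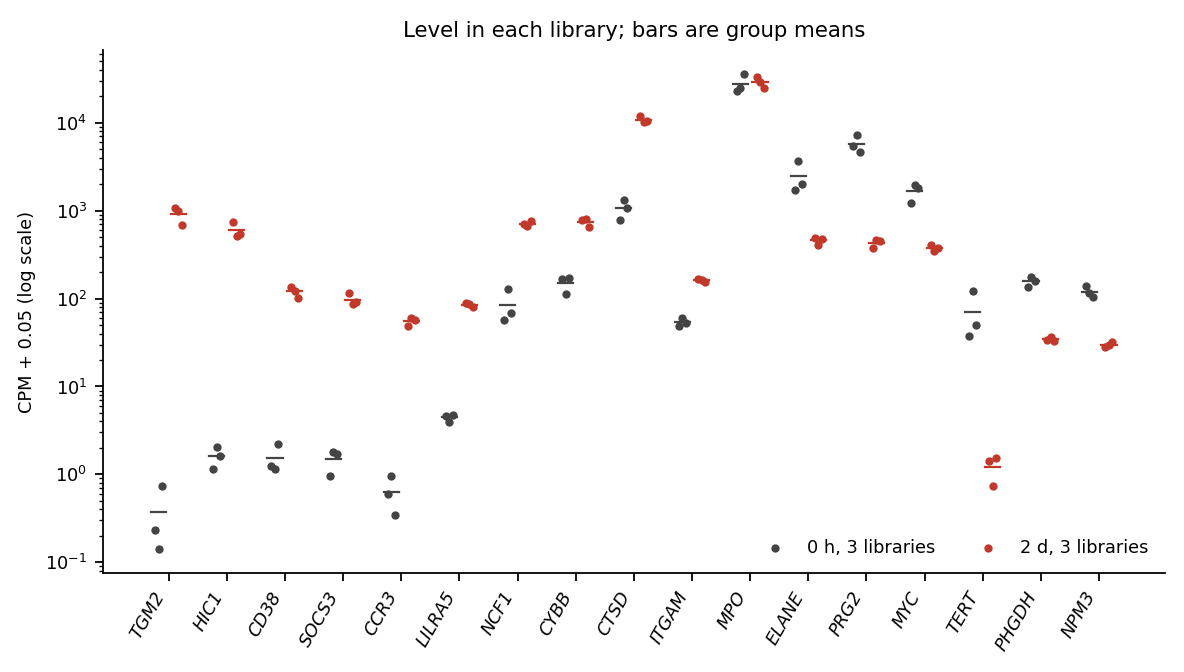
CPM plus an offset of 0.05, on a log axis, for 17 genes (x axis) in each of the 3 libraries at 0 h (dark) and at 2 d (red), with a short bar at each group mean. TGM2, HIC1, CCR3 and LILRA5 are higher in every 2 d library, ELANE, PRG2, MYC and TERT lower in every 2 d library, and the groups of MPO overlap.

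Where the mean reached 10 CPM, the steepest falls included IGLL1 and TERT. IGLL1, a part of the surrogate light chain of early B cells that is also made in myeloid progenitors, stood at 43.4, 52.2 and 42 CPM at 0 h and 0.342, 1.13 and 0.492 CPM at 2 d (log2 fold change -6.04 ± 0.43, adjusted p = 3.55e-07). Its log2 fold change was -6.80 without 2 d replicate 2. TERT, the catalytic subunit of telomerase, stood at 37.7, 122 and 50.6 CPM at 0 h and 1.37, 0.680 and 1.48 CPM at 2 d (-5.93 ± 0.48, adjusted p = 1.26e-06), and 0 h replicate 2 was the highest of its group. Without that library the value was -5.27. Both genes lay below 2 CPM in every 2 d library.

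MZB1, a chaperone of the endoplasmic reticulum, fell from 60.1 ± 19 CPM at 0 h to 2.19 ± 0.134 CPM at 2 d (-4.76 ± 0.34). MYO7A, an unconventional myosin, fell from 20.3 ± 7.25 CPM at 0 h to 0.720 ± 0.247 CPM at 2 d (-4.75 ± 0.34). SPNS3, a member of the spinster transporter family, fell with a log2 fold change of -4.34 ± 0.32. ASS1, which makes argininosuccinate from citrulline and aspartate, stood at 74.7, 86.8 and 76.8 CPM at 0 h and 5.05, 4.76 and 5.29 CPM at 2 d (-3.98 ± 0.20, adjusted p = 1.44e-08), with close replicates in both groups. OLIG2, a basic helix-loop-helix factor, fell with a log2 fold change of -3.22 ± 0.30, and C1orf186 with -3.53 ± 0.23. In CITED4, which binds the co-activators CBP and p300, and in NPDC1 the value rested in part on 0 h replicate 2, the highest library by far (48.6, 202 and 54.9 CPM in CITED4 at 0 h). CITED4 fell with a log2 fold change of -3.66 ± 0.60 with that library and of -2.69 without it, and NPDC1 with -3.22 ± 0.55 and -2.28.

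Genes that fell to 3 reads or fewer over the 2 d group were low to begin with. ANXA2, annexin A2, had 1 read at 2 d and was 71.9-fold lower (95% counting interval 12.5 to 2881). C19orf26 was 52.9-fold lower (14.3 to 443), ACTL8, an actin-like protein, 34.6-fold lower (11.5 to 170.5), and PGBD5, a domesticated transposase, 24.7-fold lower (8.11 to 122). FGFR3, a receptor of fibroblast growth factors, was 23.3-fold lower (7.64 to 116) and JPH1, a junctophilin, 22.6-fold lower (5.90 to 192.5). At 0 h, C19orf26 stood at 1.74, 5.82 and 1.95 CPM, highest in replicate 2. Without 0 h replicate 2, C19orf26 was 30.5-fold lower (7.88 to 260.3) and FGFR3 14.6-fold lower (4.50 to 74.9).

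Ranked by the gain in CPM, the first was CTSD, the lysosomal protease cathepsin D, at 794, 1325 and 1080.2 CPM at 0 h and 11987, 10169 and 10438 CPM at 2 d (log2 fold change 3.35 ± 0.28, adjusted p = 1.5e-06). GRN, progranulin, stood at 483, 576 and 648 CPM at 0 h and 3479, 2796 and 2757 CPM at 2 d (2.40 ± 0.25, adjusted p = 9.32e-06). That the groups did not overlap was a condition of this ranking. ITGB2, the shared beta chain of the leukocyte integrins, rose from 639 ± 76.2 CPM at 0 h to 2190.4 ± 242 CPM at 2 d (1.78 ± 0.20). APLP2, an amyloid precursor-like protein, rose from 401 ± 96.2 CPM at 0 h to 1599 ± 195 CPM at 2 d (2.0 ± 0.21). MYH9, the heavy chain of non-muscle myosin, rose from 968 ± 192 CPM at 0 h to 2093 ± 343 CPM at 2 d (1.11 ± 0.19). SEMA6B, a transmembrane semaphorin, varied more, with 38.4, 186 and 60 CPM at 0 h and 2622, 1062 and 1725 CPM at 2 d (4.25 ± 0.67, adjusted p = 0.000348). Its 0 h replicate 2 was high and the value was 5.20 without it.

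Ranked by the loss in CPM, the first 3 were PRG2, LYZ and CALR. PRG2, the major basic protein of eosinophil granules, stood at 5405, 7343 and 4683 CPM at 0 h and 379.5, 466 and 446 CPM at 2 d (-3.75 ± 0.25, adjusted p = 1.9e-07). In bulk RNA, fewer cells of a type and less RNA per cell cannot be told apart. LYZ, lysozyme, stood at 3998, 2091 and 3587 CPM at 0 h and 852, 1027 and 865 CPM at 2 d (-1.82 ± 0.24, adjusted p = 9.03e-05). CALR, a chaperone of the endoplasmic reticulum, fell from 3317 ± 1059 CPM at 0 h to 1068 ± 96.5 CPM at 2 d (-1.63 ± 0.24). MYC, a transcription factor of growth that is amplified in HL-60 cells, stood at 1236, 1945 and 1812 CPM at 0 h and 404, 351 and 379 CPM at 2 d (-2.14 ± 0.21, adjusted p = 8e-06). As in the ranking by gain, no overlap between the groups was a condition.

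Primary granule genes did not move as a block: 10 of 19 tested members fell, 5 rose and 4 were not called, with a median of -0.54. MPO, myeloperoxidase, stood at 23300.3, 24593 and 36022 CPM at 0 h and 32888, 29178 and 24775 CPM at 2 d, and the groups overlapped (log2 fold change 0.05 ± 0.21, adjusted p = 0.877). Its sign turned under 7 of 25 alternatives, for example when 0 h replicate 1 (-0.065), 0 h replicate 2 (-0.04) or 2 d replicate 1 (-0.05) was left out. ELANE, neutrophil elastase, stood at 1703, 3706 and 2009 CPM at 0 h and 489.9, 410.3 and 482 CPM at 2 d (-2.42 ± 0.32, adjusted p = 8.54e-05). CTSG, cathepsin G, stood at 518, 455 and 535 CPM at 0 h and 116, 126 and 111 CPM at 2 d (-2.10 ± 0.20, adjusted p = 4.63e-06). The serine proteases were thus lower in all 3 libraries at 2 d while the peroxidase of the same granule was not separable between the groups.

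CST7, a cystatin that inhibits cathepsins, fell most of the primary granule list (-3.03 ± 0.18), followed by PRSS57, a serine protease (-2.62 ± 0.30). Calls of PRTN3, proteinase 3, and AZU1, azurocidin, did not hold in every setting. PRTN3 fell with a log2 fold change of -0.89 ± 0.31 (adjusted p = 0.0397). The value was -0.39 with the GC and length offset (adjusted p = 0.0802) and -0.52 without 0 h replicate 2. Its adjusted p was 0.156 without 0 h replicate 2, 0.0804 without 2 d replicate 1, 0.121 without 2 d replicate 2, 0.0805 without 2 d replicate 3 and 0.0536 without 4 d replicate 3. AZU1 fell with a log2 fold change of -1.19 ± 0.37 (adjusted p = 0.0232), with -0.67 (adjusted p = 0.103) without 0 h replicate 2 and an adjusted p of 0.0828 without 2 d replicate 1 and 0.068 without 2 d replicate 2. DEFA4, the defensin HNP-4, went the other way at 36.4, 27.8 and 23.2 CPM at 0 h and 107, 147 and 139 CPM at 2 d (2.17 ± 0.20, adjusted p = 3.34e-06). SERPINB1, an inhibitor of neutrophil proteases, and GUSB, beta-glucuronidase, rose by 1.0 ± 0.15 and 0.91 ± 0.17. DEFA1 and DEFA3, near-identical copies, had no read assigned.

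Secondary and tertiary granule genes were mixed, with 5 of 19 tested members higher, 6 lower and a median of 0.32. With the GC and length offset 8 were higher (42.1%, against 15.5% of all genes) in place of 5 (26.3%, against 16.9%). CEACAM1, an adhesion molecule of the carcinoembryonic antigen family, stood at 21, 15.4 and 19.5 CPM at 0 h and 227, 245 and 242 CPM at 2 d (3.67 ± 0.18, adjusted p = 1.12e-08). CEACAM8, the granulocyte marker CD66b, rose by 1.01 ± 0.23, ORM1, an acute-phase glycoprotein with a near-identical copy, by 2.17 ± 0.28, and MMP25, a membrane-bound matrix protease, by 0.77 ± 0.27. The call of MMP25 (adjusted p = 0.0386) ended without any one of 8 libraries, with adjusted p from 0.0509 without 4 d replicate 2 to 0.13 without 0 h replicate 1, and in a fit of the 6 libraries alone (0.0515). LTF, lactoferrin, a classical secondary granule protein, stood at 15.7, 18.3 and 20 CPM at 0 h and 10.6, 11.5 and 8.12 CPM at 2 d and fell (-0.83 ± 0.21, adjusted p = 0.00871). CAMP, cathelicidin, stood at 3.58, 3.54 and 1.85 CPM at 0 h and 3.25, 4.23 and 4.18 CPM at 2 d and was not called (adjusted p = 0.403). SLC11A1, a metal transporter of phagosomes, and FCN1, a ficolin, fell with a log2 fold change of -1.75 ± 0.29 and -1.73 ± 0.25. MMP9, gelatinase B, fell with a log2 fold change of -3.20 ± 0.43 from a low level (2.57 ± 0.530 CPM at 0 h to 0.262 ± 0.218 CPM at 2 d), and of -4.09 without 2 d replicate 1. LCN2, lipocalin-2, with 26 reads at 0 h and 3 at 2 d, was 8.90-fold lower (95% counting interval 2.73 to 46), and its call ended without 0 h replicate 1 (adjusted p = 0.0509), 2 d replicate 1 (0.0562) or 2 d replicate 2 (0.0628). Lactoferrin and cathelicidin were thus at or below 20 CPM in every library of both groups.

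Genes of the NADPH oxidase, the phagocyte enzyme that makes superoxide, counted 8 of 13 tested members higher and 0 lower, with a median of 0.65. The promoters of 2 members are shown because the rule took the steepest rises in this list with an entry in the RefSeq table (GRCh38.p14, 250 bases before to 50 after the start, 5′ to 3′ on the strand of the gene, here + for both). Capitals in NCF1 (chr7:74773761-74774060) mark GAGGAAGT, the core bound by PU.1-type factors, found on the opposite strand. Capitals in CYBB (chrX:37779809-37780108) mark an interferon-regulatory type of element (GAAA, any 2 bases, GAAA) and CCAAT, searched on both strands, with overlapping matches joined. GAGGAAGT was in 2 of 5 NADPH oxidase promoters with an entry. It was in 2.8% of the 9351 promoters of tested genes and in 4.6% of those of genes that rose. The GAAA element was in 2 of the 5, against 2.89% of the promoters of tested genes and 4.22% of those of genes that rose. CCAAT was in 1 of the 5 (20%), below the 36.6% of tested genes and the 32.3% of genes that rose. The shares describe a list of few promoters and not the change at 2 d. The capitals are matches in a reference, not measured binding.
NCF1: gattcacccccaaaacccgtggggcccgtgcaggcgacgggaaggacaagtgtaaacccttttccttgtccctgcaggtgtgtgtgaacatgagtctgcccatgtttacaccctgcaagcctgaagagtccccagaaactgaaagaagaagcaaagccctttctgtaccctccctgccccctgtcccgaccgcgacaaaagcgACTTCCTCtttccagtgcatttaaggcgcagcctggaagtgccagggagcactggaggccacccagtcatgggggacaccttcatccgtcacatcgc
CYBB: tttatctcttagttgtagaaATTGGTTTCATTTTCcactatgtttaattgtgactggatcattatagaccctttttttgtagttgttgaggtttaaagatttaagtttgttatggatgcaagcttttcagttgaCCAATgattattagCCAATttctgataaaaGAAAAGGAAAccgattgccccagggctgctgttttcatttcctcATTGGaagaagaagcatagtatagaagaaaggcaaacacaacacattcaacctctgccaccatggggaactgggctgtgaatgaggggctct

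CYBB, the heme-bearing subunit gp91phox, stood at 165, 114 and 173 CPM at 0 h and 790.3, 797 and 661 CPM at 2 d (2.31 ± 0.20, adjusted p = 2.48e-06). NCF1, the cytosolic organizer p47phox, stood at 56.7, 128 and 67.9 CPM at 0 h and 701, 673 and 754 CPM at 2 d (3.07 ± 0.32, adjusted p = 1.12e-05). NCF1B and NCF1C, near-identical copies of NCF1, gave 3.44 ± 0.37 and 3.65 ± 0.37, and reads may have been split among the 3. All 3 are among the 8 members counted higher, so that count does not stand for 8 separate signals. CYBA, the partner of CYBB in the membrane, was not called (682, 1307 and 644 CPM at 0 h and 1258, 1057 and 1121 CPM at 2 d, adjusted p = 0.4). NCF4, p40phox, was not called either (467, 922 and 482 CPM at 0 h and 545, 560.5 and 642 CPM at 2 d). In both of these, 0 h replicate 2 was the highest of its group and the groups overlapped. Without that library both 0 h values lay below every 2 d library in CYBA and in NCF4, with log2 fold changes of 0.78 (adjusted p = 0.0645) and 0.29 (adjusted p = 0.431). CYBA was called higher with the GC and length offset (0.66, adjusted p = 0.0311) and without the 3 libraries that stand apart (0.79, adjusted p = 0.0041).

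Leukocyte integrins and adhesion genes counted 8 of 22 tested members higher and 5 lower, with a median of 0.47. ITGAM, CD11b, the alpha chain of the complement receptor CR3 and a standard marker of this differentiation, stood at 48.5, 59.9 and 52.7 CPM at 0 h and 168, 162 and 153 CPM at 2 d (1.58 ± 0.14, adjusted p = 3.27e-06). ICAM1, a ligand of leukocyte integrins, stood at 1.56, 2.0 and 2.24 CPM at 0 h and 37.3, 40.8 and 34.8 CPM at 2 d (4.28 ± 0.22). ITGB7, another integrin beta chain, stood at 7.99, 11.3 and 13.1 CPM at 0 h and 159.8, 163 and 154 CPM at 2 d (3.88 ± 0.20). CD44, the hyaluronan receptor, fell with a log2 fold change of -1.88 ± 0.24, with 89.3, 49.3 and 76 CPM at 0 h and 22.9, 17.9 and 17.2 CPM at 2 d. ITGA2B, the platelet integrin chain, fell with a log2 fold change of -0.74 ± 0.24 (adjusted p = 0.029). It was no longer called without 0 h replicate 2 (adjusted p = 0.1), 0 h replicate 3 (0.0509), 2 d replicate 1 (0.0889), 2 d replicate 2 (0.0566) or 2 d replicate 3 (0.0792). Without 2 d replicate 1, 3 members of the list (13.6%, against 12.7% of all genes) were lower in place of 5 (22.7%, against 18.7%). Without the 3 libraries that stand apart 13 (59.1%, against 22%) were higher in place of 8 (36.4%, against 16.9%).

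Receptors for chemoattractants counted 8 of 17 tested members higher and 1 lower, with a median of 0.75, and 0.50 without 0 h replicate 2. Besides CCR3, CCR2 stood at 2.20, 1.82 and 2.34 CPM at 0 h and 17.3, 15.7 and 16.1 CPM at 2 d (2.94 ± 0.21). CCR1 stood at 20.1, 12.4 and 20.8 CPM at 0 h and 109, 109.9 and 106 CPM at 2 d (2.61 ± 0.20), and both are receptors of monocyte chemokines. CXCR2, the neutrophil receptor of interleukin-8, rose by 1.46 ± 0.16, and CXCR4, which holds myeloid cells in the marrow, by 0.38 ± 0.13 (adjusted p = 0.0396). The call of CXCR4 ended without any one of 8 libraries, with adjusted p from 0.0624 to 0.135, with the GC and length offset (0.0539), in a fit of the 6 libraries alone (0.0814) and with no filter on low counts (0.239). FPR1, the receptor of bacterial formyl peptides, fell, with 11.7, 8.63 and 10.8 CPM at 0 h and 5.56, 6.12 and 4.92 CPM at 2 d (-0.90 ± 0.19, adjusted p = 0.00236). C5AR1, the receptor of complement C5a, was not called (9.0, 4.45 and 9.44 CPM at 0 h and 8.64, 8.24 and 7.63 CPM at 2 d, adjusted p = 0.805). The count of members called lower was 2 when 0 h replicate 1, 0 h replicate 2 or the 3 libraries that stand apart were left out, and with no filter on low counts.

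Fc and complement receptors counted 6 of 15 tested members higher and 1 lower, with a median of 0.71, which was 0.40 without 0 h replicate 2, when 2 were lower, and 0.36 in a fit of the 6 libraries alone. VSIG4, a complement receptor of macrophages, stood at 1.47, 1.09 and 1.27 CPM at 0 h and 25.7, 26.5 and 20.2 CPM at 2 d (4.24 ± 0.19, adjusted p = 6.65e-09). CR1, the C3b receptor, stood at 11.1, 11.1 and 15.9 CPM at 0 h and 53.5, 45 and 43.9 CPM at 2 d (1.90 ± 0.22, adjusted p = 2.81e-05). FCGRT, the neonatal Fc receptor, rose by 1.25 ± 0.30 and FCER1G, the common signalling chain of Fc receptors, by 0.79 ± 0.20. FCGR1A, the high-affinity IgG receptor, which has near-identical copies, stood at 24.9, 25.5 and 18.6 CPM at 0 h and 18, 20.6 and 23.4 CPM at 2 d and was not called. FCGR2A stood at 20.8, 11 and 15.3 CPM at 0 h and 12.5, 11.5 and 11.4 CPM at 2 d and was not called; without 0 h replicate 2 it was, with a log2 fold change of -0.62 (adjusted p = 0.031).

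Inhibitory and paired receptors of myeloid cells counted 11 of 18 tested members higher and 0 lower, with a median of 0.98. LILRA5, an activating member of the leukocyte immunoglobulin-like family, stood at 4.59, 3.91 and 4.67 CPM at 0 h and 88.5, 85.9 and 80.9 CPM at 2 d (4.27 ± 0.17, adjusted p = 3.25e-09). LILRB2, an inhibitory member that binds HLA class I, stood at 8.91, 13.4 and 10.4 CPM at 0 h and 95.8, 101 and 117 CPM at 2 d (3.26 ± 0.24, adjusted p = 5.9e-07). LILRA1 rose by 2.93 ± 0.24 and LILRA3 by 2.93 ± 0.27. The genes of this family are similar in sequence, so reads may have been split among them. A single member was called lower without 4 h replicate 3, without 2 d replicate 2, without 4 d replicate 1 or without the 3 libraries that stand apart.

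Pattern receptors went both ways, with 9 of 25 tested members higher, 6 lower and a median of 0.25. CD14, the co-receptor of lipopolysaccharide and a monocyte marker, stood at 20.4, 24.7 and 22.3 CPM at 0 h and 3.93, 4.53 and 3.81 CPM at 2 d and fell (-2.45 ± 0.20, adjusted p = 1.13e-06). TLR4, the lipopolysaccharide receptor itself, stood at 28.5, 19.1 and 26.6 CPM at 0 h and 56.9, 53.4 and 46.9 CPM at 2 d and rose (1.09 ± 0.20, adjusted p = 0.0012). TLR9, the receptor of unmethylated DNA, fell with a log2 fold change of -2.23 ± 0.25, and CLEC5A and CLEC12A, C-type lectins of myeloid cells, with -0.92 ± 0.14 and -0.83 ± 0.14. NLRC4, an inflammasome sensor of flagellin, and SIGLEC7, a sialic acid receptor, rose by 2.26 ± 0.15 and 2.04 ± 0.19. The LPS co-receptor and the LPS receptor thus moved in opposite directions, each without overlap between groups.

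Transcription factors of the myeloid lineage counted 14 of 37 tested members higher and 5 lower, with a median of 0.65. With the GC and length offset 9 were lower (24.3%, against 23.2% of all genes), and without the 3 libraries that stand apart 8 (21.6%, against 24%). CEBPB, the C/EBP factor of emergency granulopoiesis, stood at 55.2, 84.1 and 53.5 CPM at 0 h and 292, 253 and 313 CPM at 2 d (2.15 ± 0.23, adjusted p = 1.28e-05). CEBPE, which directs late granulopoiesis, stood at 533, 846 and 569 CPM at 0 h and 1194, 1129.9 and 1019 CPM at 2 d (0.78 ± 0.24, adjusted p = 0.0215), and its call ended without 0 h replicate 1 (adjusted p = 0.0789), 0 h replicate 3 (0.073), 2 d replicate 1 (0.0716) or 2 d replicate 2 (0.0659). CEBPA and SPI1, which set up the myeloid lineage, were not called. CEBPA stood at 964, 1040.1 and 1050.2 CPM at 0 h and 1191, 786 and 828 CPM at 2 d. SPI1 stood at 549.5, 1379.5 and 715 CPM at 0 h and 869, 765 and 882 CPM at 2 d, highest in 0 h replicate 2. The groups of CEBPA and of SPI1 overlapped. Without 0 h replicate 2 the log2 fold change of SPI1 was 0.40 in place of -0.07 (adjusted p = 0.298), and with the GC and length offset and without that library it was called (adjusted p = 0.0435).

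RUNX3, a Runt factor, stood at 126, 116 and 194 CPM at 0 h and 860.4, 634 and 547 CPM at 2 d (2.23 ± 0.25, adjusted p = 2.13e-05). ID1, which blocks DNA binding by basic helix-loop-helix proteins, rose by 3.61 ± 0.39, and by 4.48 without 0 h replicate 2. PRDM1, the repressor BLIMP1, rose by 1.98 ± 0.33. NFE2, a factor of megakaryocytes and erythroid cells, and CEBPG fell with a log2 fold change of -1.0 ± 0.20 and -0.55 ± 0.13.

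Progenitor factors counted 9 of 17 tested members lower and 2 higher, with a median of -0.59. GATA2, a factor of stem and mast cells, stood at 79.5, 134 and 85.1 CPM at 0 h and 14.1, 9.07 and 12.4 CPM at 2 d (-3.07 ± 0.24, adjusted p = 9.35e-07). WT1, a zinc finger factor raised in leukemias, stood at 17.8, 24.4 and 25.7 CPM at 0 h and 3.34, 2.72 and 2.21 CPM at 2 d (-3.02 ± 0.23, adjusted p = 6.34e-07). MYB, which maintains progenitors, stood at 266, 232 and 254 CPM at 0 h and 130.0, 139 and 125 CPM at 2 d (-0.93 ± 0.14, adjusted p = 0.000184). SOX4 rose by 0.55 ± 0.16 (adjusted p = 0.0183). That call ended without 0 h replicate 1 (adjusted p = 0.0571), 0 h replicate 3 (0.0535) or 2 d replicate 1 (0.109), and in a fit of the 6 libraries alone (0.0516). With the GC and length offset the value was 0.27 (adjusted p = 0.199). With that offset, in the 6 libraries alone, or with 0 h replicate 1 or 2 d replicate 1 left out, 1 member of the list was called higher in place of 2.

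Cytokine receptors counted 16 of 27 tested members higher and 2 lower, with a median of 1.04, and 0.70 with the GC and length offset. CSF3R, the receptor of the granulocyte growth factor G-CSF, stood at 276, 586 and 341 CPM at 0 h and 899, 815 and 913 CPM at 2 d (1.13 ± 0.31, adjusted p = 0.0117). CSF1R, the macrophage counterpart, stood at 2.02, 1.82 and 1.95 CPM at 0 h and 19, 15 and 15.7 CPM at 2 d (3.10 ± 0.19, adjusted p = 9.13e-08). CSF2RB, the shared chain for GM-CSF, interleukin-3 and interleukin-5, stood at 65.5, 86.9 and 90 CPM at 0 h and 249, 190.4 and 174 CPM at 2 d (1.34 ± 0.18). IL1RAP, the interleukin-1 co-receptor, rose by 1.75 ± 0.33, while IL2RG, the common gamma chain, fell with a log2 fold change of -1.45 ± 0.16. Receptor chains for all 3 colony-stimulating factors were therefore higher in every 2 d library.

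Cytokines and chemokines counted 9 of 26 tested members higher (34.6%, against 16.9% of all genes) and 4 lower, with a median of 0.23. Without 0 h replicate 3, 5 were higher (19.2%, against 14.6%), closer to the share of all genes. CCL2, a monocyte chemoattractant, stood at 18.4, 15.9 and 12.7 CPM at 0 h and 70.2, 102 and 93.5 CPM at 2 d (2.50 ± 0.19). HBEGF, a ligand of the EGF receptor, stood at 3.03, 2.09 and 2.53 CPM at 0 h and 17.9, 14.7 and 16.8 CPM at 2 d (2.68 ± 0.19). IL16 rose by 0.98 ± 0.18, and VEGFA, the vascular growth factor, fell with a log2 fold change of -1.62 ± 0.26. Kinases and adaptors of these pathways counted 19 of 37 tested members higher and 7 lower, with a median of 0.54. SOCS3, which blocks JAK signalling, stood at 0.918, 1.73 and 1.65 CPM at 0 h and 116, 85.7 and 91.5 CPM at 2 d (6.08 ± 0.27, adjusted p = 6.65e-09). PIK3CG, a lipid kinase of chemoattractant signalling, rose by 3.31 ± 0.29, FGR, a kinase of the Src family, by 2.65 ± 0.27, and PIM1 by 2.63 ± 0.17. CISH, another inhibitor of cytokine signalling, and DUSP2, a phosphatase of MAP kinases, fell with a log2 fold change of -1.49 ± 0.19 and -1.36 ± 0.25.

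Interferon-stimulated genes counted 24 of 37 tested members higher and 3 lower, with a median of 0.997. The promoter of OAS3, chosen after its values were seen, is shown because it holds 2 matches of GAAA, any 2 bases, GAAA (capitals), the element bound by interferon-regulatory factors (RefSeq, GRCh38.p14, chr12:112938224-112938523, + strand). Of the 29 promoters of this list in the table, 17 (58.6%) held this element on either strand, against 2.89% of the 9351 promoters of tested genes and 4.22% of those of genes that rose. The share describes the list, whose members are known interferon targets, and not the change at 2 d.
OAS3: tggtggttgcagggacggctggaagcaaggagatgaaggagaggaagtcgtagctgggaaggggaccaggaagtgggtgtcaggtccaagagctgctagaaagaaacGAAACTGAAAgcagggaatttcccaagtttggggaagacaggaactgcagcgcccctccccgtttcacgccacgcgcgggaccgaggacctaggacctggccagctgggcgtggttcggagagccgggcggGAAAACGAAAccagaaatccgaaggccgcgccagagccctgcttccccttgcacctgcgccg

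OAS3, which makes the activator of RNase L, stood at 4.13, 2.36 and 5.64 CPM at 0 h and 35, 25.5 and 24.5 CPM at 2 d (2.81 ± 0.32, adjusted p = 2.57e-05). MX2, an antiviral GTPase, stood at 3.21, 3.45 and 4.96 CPM at 0 h and 20.5, 20.9 and 21 CPM at 2 d (2.42 ± 0.19, adjusted p = 7.12e-07). IRF1, an interferon-regulatory factor, stood at 30.8, 30.7 and 29.1 CPM at 0 h and 96, 94.5 and 105 CPM at 2 d (1.71 ± 0.14, adjusted p = 1.7e-06). IFI6 rose by 1.79 ± 0.26, and STAT2, which carries the interferon signal to DNA, by 0.86 ± 0.15. GBP4, a guanylate-binding protein, had no read at 0 h and was at least 21.1-fold higher. HERC5, a ligase of ISG15, and BST2, tetherin, fell with a log2 fold change of -1.16 ± 0.28 and -0.90 ± 0.20. A further 10 members had too few reads to be tested.

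Class I antigen presentation counted 6 of 18 tested members higher and 2 lower, with a median of 0.56. TAPBPL, a relative of tapasin, stood at 13, 14.4 and 14.8 CPM at 0 h and 45.3, 48.9 and 40.2 CPM at 2 d (1.67 ± 0.16). ERAP1, a peptidase that trims peptides, stood at 10.9, 6.0 and 11.6 CPM at 0 h and 31.6, 28 and 21.6 CPM at 2 d (1.51 ± 0.34). TAPBP, tapasin, stood at 3.03, 3.18 and 1.65 CPM at 0 h and 5.99, 28.5 and 5.90 CPM at 2 d, so that 2 d replicate 2 set its value (2.37 ± 0.56, and 1.15 without that library, adjusted p = 0.0361). PDIA3, a disulfide isomerase of the loading complex, fell with a log2 fold change of -0.72 ± 0.17. Of 14 class II genes in the files, 4 had enough reads to be tested, and 1, CTSS, the protease cathepsin S, rose (0.94 ± 0.20); 2 were higher without 4 h replicate 1, 4 h replicate 3 or the 3 libraries that stand apart, with library totals in place of TMM, in the 6 libraries alone and with the GC and length offset.

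DNA replication counted 8 of 47 tested members lower and 1 higher, with a median of -0.17, and mitosis 8 of 48 higher and 3 lower, with a median of 0.19. Of all tested genes 18.7% were lower and 16.9% higher. The count lower in DNA replication changed with the setting. It was 20 of 47 (42.6%, against 24% of all genes) without the 3 libraries that stand apart. With the GC and length offset it was 13 (27.7%, against 23.2%), and 15 (31.9%, against 20.8%) when 0 h replicate 2 was also left out. Leaving out 0 h replicate 1 or 2 d replicate 2 gave 5 (10.6%, against 15.8% and 14.6%). Leaving out 2 d replicate 1 gave 3 (6.38%, against 12.7%). The count lower in mitosis was 5 (10.4%) without 4 d replicate 1 (against 20.5%) or with DESeq2 (against 20.4%). It was 6 (12.5%, against 24%) without the 3 libraries that stand apart. MCM2, a subunit of the replicative helicase, stood at 409.8, 322 and 511 CPM at 0 h and 484, 466 and 366 CPM at 2 d and was not called (adjusted p = 0.78). PCNA, the sliding clamp, stood at 218, 191 and 208 CPM at 0 h and 139.5, 176 and 174 CPM at 2 d and was not called either (adjusted p = 0.0861), though it was called lower with DESeq2 (adjusted p = 0.0204) and without the 3 libraries that stand apart (0.0275).

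POLD2, a subunit of DNA polymerase delta, fell most of the replication list, at 396, 636 and 479 CPM at 0 h and 167, 158 and 171 CPM at 2 d (-1.61 ± 0.24, adjusted p = 0.000218). CCNE1, cyclin E, which opens S phase, fell with a log2 fold change of -1.0 ± 0.22. E2F1, an activator of S-phase genes, fell with a log2 fold change of -0.82 ± 0.24 (adjusted p = 0.017), with -0.57 (adjusted p = 0.0536) without 0 h replicate 2 and an adjusted p of 0.0591 without 2 d replicate 1 and 0.0597 without 2 d replicate 2. E2F2 rose, at 50, 60 and 58.9 CPM at 0 h and 107, 92.1 and 95.7 CPM at 2 d (0.80 ± 0.14, adjusted p = 0.000802). In mitosis, MKI67, the proliferation marker Ki-67, stood at 276, 229 and 293 CPM at 0 h and 585, 462 and 467 CPM at 2 d and rose (0.92 ± 0.16, adjusted p = 0.000809), as did ASPM, a spindle pole protein (1.17 ± 0.21). TOP2A rose by 0.92 ± 0.30 (adjusted p = 0.0278). It was no longer called without 0 h replicate 2 (0.66, adjusted p = 0.0794), 2 d replicate 1 (0.0989) or 2 d replicate 2 (0.0754). CDK1, the mitotic kinase, was not called (94.4, 63.6 and 85.3 CPM at 0 h and 86.9, 94.8 and 83.3 CPM at 2 d).

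The promoters of CDC25A and PTTG1, the 2 steepest falls of the mitosis list, are shown from RefSeq (GRCh38.p14; CDC25A at chr3:48188368-48188667 on the - strand, PTTG1 at chr5:160421605-160421904 on the + strand). Capitals mark CCAAT in either orientation, the element bound by NF-Y, with overlapping matches joined. CCAAT was in 29 of 41 mitosis promoters (70.7%) against 36.6% of the 9351 promoters of tested genes and 36.8% of those of genes that fell. TTTGAA, the core of the cell cycle homology region, was in 28 of the 41 (68.3%) against 9.86% and 7.09%. These shares describe the list, 37 of whose 48 tested members were not called, and not the change at 2 d.
CDC25A: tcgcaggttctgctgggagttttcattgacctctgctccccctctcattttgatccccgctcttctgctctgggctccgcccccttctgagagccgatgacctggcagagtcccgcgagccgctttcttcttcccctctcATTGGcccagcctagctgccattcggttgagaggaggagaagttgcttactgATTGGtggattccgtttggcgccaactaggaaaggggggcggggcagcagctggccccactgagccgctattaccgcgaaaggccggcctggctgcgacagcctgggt
PTTG1: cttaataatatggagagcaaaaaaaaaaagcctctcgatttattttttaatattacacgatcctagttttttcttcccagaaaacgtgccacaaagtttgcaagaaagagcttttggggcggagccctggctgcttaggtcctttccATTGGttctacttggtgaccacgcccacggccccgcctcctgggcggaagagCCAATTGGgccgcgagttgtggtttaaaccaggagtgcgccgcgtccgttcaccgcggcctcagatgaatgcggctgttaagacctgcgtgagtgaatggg

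CDC25A, a phosphatase that activates cyclin-dependent kinases, stood at 104, 77.6 and 86.9 CPM at 0 h and 50.7, 44.7 and 44.6 CPM at 2 d (-0.94 ± 0.15, adjusted p = 0.000327). PTTG1, securin, stood at 87.1, 91.5 and 62.9 CPM at 0 h and 38.3, 50.3 and 48.8 CPM at 2 d (-0.81 ± 0.18, adjusted p = 0.00359), and MYBL2, a factor of late cell cycle genes, fell with a log2 fold change of -0.70 ± 0.18. PTTG1 was not called with the GC and length offset and without 0 h replicate 2 (-0.35, adjusted p = 0.13). Cyclins and kinases of G1 counted 7 of 11 tested members lower (63.6%, against 18.7% of all genes) and 1 higher, with a median of -0.55. The count lower was 4 (36.4%) without 0 h replicate 1 (against 15.8%), without 2 d replicate 1 (against 12.7%) or with no filter on low counts (against 10.4%). CDK4 stood at 264, 304 and 287 CPM at 0 h and 139, 146 and 154 CPM at 2 d (-0.96 ± 0.16, adjusted p = 0.000606) and CDK6 fell with a log2 fold change of -0.95 ± 0.25, while CCND3, cyclin D3, rose by 0.82 ± 0.21 and CCND1, cyclin D1, fell with a log2 fold change of -0.98 ± 0.15.

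Brakes of the cell cycle counted 9 of 23 tested members higher and 0 lower, with a median of 0.29, and 1 was lower without 0 h replicate 2, without the 3 libraries that stand apart or with the GC and length offset. BTG1, an anti-proliferative adaptor of mRNA decay, stood at 105, 90.6 and 90.4 CPM at 0 h and 269, 251 and 288 CPM at 2 d (1.5 ± 0.14, adjusted p = 4.53e-06), and its relative BTG2 rose by 1.33 ± 0.18. CDKN2C, the CDK4 and CDK6 inhibitor p18, rose by 1.12 ± 0.19, CDKN1B, p27, by 0.68 ± 0.18 and CCNG2, cyclin G2, by 1.22 ± 0.17. CDKN1A, p21, stood at 2.11, 1.36 and 2.43 CPM at 0 h and 0.941, 1.51 and 1.48 CPM at 2 d and was not called (adjusted p = 0.211).

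Ribosome biogenesis, the making of rRNA and its assembly into subunits, counted 35 of 45 tested members lower and 0 higher, with a median of -0.998, against 18.7% lower and -0.02 over all genes. MRTO4, an assembly factor of the large subunit chosen for display after its values were seen, carries 1 CACGTG (capitals), the E-box bound by MYC and related factors, near its start (RefSeq, GRCh38.p14, chr1:19251555-19251854, + strand). CACGTG, which reads the same on both strands, was in 12 of 37 promoters of this list (32.4%) against 10.5% of the 9351 promoters of tested genes and 14.1% of those of genes that fell. The share describes the list, whatever the call of its members, and not their fall. Whether MYC had a part in that fall was not tested.
MRTO4: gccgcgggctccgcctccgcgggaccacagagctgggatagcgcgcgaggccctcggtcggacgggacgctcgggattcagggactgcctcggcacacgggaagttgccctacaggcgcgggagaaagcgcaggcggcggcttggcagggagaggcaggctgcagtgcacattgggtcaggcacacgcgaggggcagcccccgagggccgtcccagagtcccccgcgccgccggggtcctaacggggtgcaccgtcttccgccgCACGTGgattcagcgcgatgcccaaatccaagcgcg

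MRTO4 stood at 183, 151 and 137 CPM at 0 h and 37.2, 42.6 and 44.2 CPM at 2 d (-1.93 ± 0.19, adjusted p = 8.25e-06). NPM3, a relative of nucleophosmin, stood at 137, 117 and 105 CPM at 0 h and 28.1, 29.8 and 32 CPM at 2 d (-2.0 ± 0.18, adjusted p = 3.27e-06). NCL, nucleolin, stood at 1340.3, 883 and 1227 CPM at 0 h and 565, 594 and 569.6 CPM at 2 d (-1.0 ± 0.17, adjusted p = 0.000543). BOP1, of the large subunit pathway, and RRP9, of the small subunit processome, fell with a log2 fold change of -1.80 ± 0.28 and -1.75 ± 0.24. NPM1, nucleophosmin, fell with a log2 fold change of -1.11 ± 0.16 and FBL, the rRNA methylase fibrillarin, with -1.06 ± 0.18. UBTF, which opens rDNA to polymerase I, was not called (-0.04). In MRTO4, NPM3 and NCL every 2 d library lay below every 0 h library.

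Cytosolic ribosomal proteins counted 9 of 61 tested members lower (14.8%, against 18.7% of all genes) and 0 higher, with a median of -0.37. This order turned in other settings. The count was 18 (29.5%, against 18.7%) without 0 h replicate 2, 21 (34.4%, against 20.4%) with DESeq2 and 27 (44.3%, against 24%) without the 3 libraries that stand apart. Without 2 d replicate 1 it was 1 (1.64%, against 12.7%). It was 4 (6.56%, against 15.8%) without 0 h replicate 1 and 5 (8.2%, against 14.6%) without 2 d replicate 3. Leaving out 4 h replicate 1 gave 15 (24.6%, against 19.1%) and 4 d replicate 1 gave 16 (26.2%, against 20.5%). Leaving out 4 h replicate 3 gave 18 (29.5%, against 19.9%). RPL17, whose reads may be shared with a read-through gene, fell with a log2 fold change of -1.36 ± 0.21. RPL38 fell with a log2 fold change of -0.89 ± 0.23 and RPL12 with -0.76 ± 0.21, calls that ended without 2 d replicate 1 (adjusted p = 0.0535 and 0.0722). RPL35 fell with a log2 fold change of -0.75 ± 0.25 (adjusted p = 0.0353), and with -0.35 under the GC and length offset (adjusted p = 0.132). Its call ended without each 0 h or 2 d library except 0 h replicate 3, with adjusted p from 0.0619 to 0.126.

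Mitochondrial ribosomal proteins counted 40 of 54 tested members lower and 0 higher, with a median of -0.81. MRPL36 stood at 35, 30.6 and 27.6 CPM at 0 h and 9.41, 11.1 and 10.5 CPM at 2 d (-1.59 ± 0.16, adjusted p = 8.53e-06). MRPS26 stood at 88.6, 99.3 and 92.2 CPM at 0 h and 32.8, 34 and 35.5 CPM at 2 d (-1.45 ± 0.18), and MRPL4 and MRPL24 fell with a log2 fold change of -1.41 ± 0.24 and -1.41 ± 0.18. Subunits of the respiratory chain counted 34 of 55 tested members lower and 0 higher, with a median of -0.62. That count (61.8%, against 18.7% of all genes) was 16 without 2 d replicate 1 (29.1%, against 12.7%). It was 21 (38.2%) without 0 h replicate 1 (against 15.8%) or 2 d replicate 3 (against 14.6%). ATP5G1, a subunit of the ATP synthase rotor, stood at 248, 347 and 232 CPM at 0 h and 87.2, 93.4 and 91.6 CPM at 2 d (-1.60 ± 0.20). NDUFB9, of complex I, stood at 429.5, 451 and 279 CPM at 0 h and 114, 138 and 147 CPM at 2 d (-1.54 ± 0.24). ATP5D and COX7B, of ATP synthase and cytochrome oxidase, fell with a log2 fold change of -1.20 ± 0.30 and -1.08 ± 0.23.

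**Figure D3:**
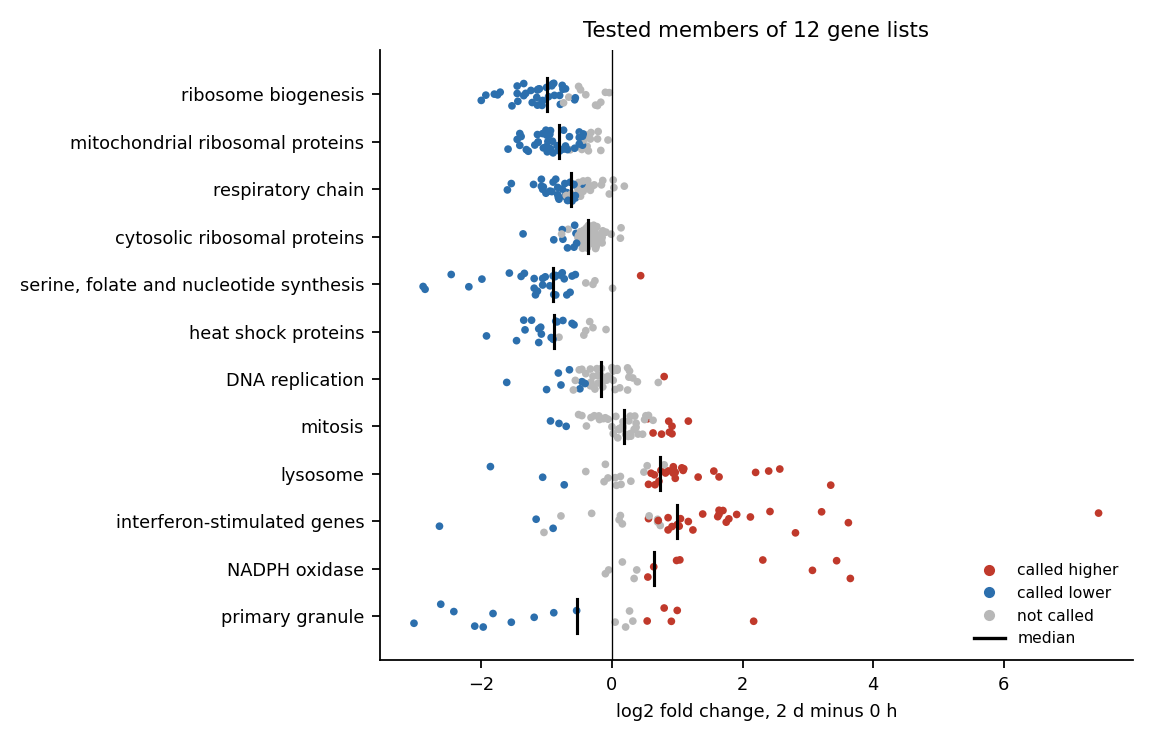
Log2 fold change (2 d minus 0 h, x axis) of each tested member of 12 gene lists (rows); red members were called higher, blue lower, grey not called, and the black bar is the median of the list. Ribosome biogenesis, mitochondrial ribosomal proteins and the respiratory chain lie left of 0 with medians of -0.998, -0.81 and -0.62, mitosis and DNA replication straddle 0, and the lysosome and interferon-stimulated genes lie mostly to the right.

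The list of serine, folate and nucleotide synthesis, which supply building blocks of growth, counted 28 of 33 tested members lower and 1 higher, with a median of -0.90. The list is wider than its name and also holds enzymes of proline, asparagine and spermidine synthesis. PHGDH, the first enzyme of serine synthesis, stood at 137, 176 and 160.5 CPM at 0 h and 33.6, 37 and 33.1 CPM at 2 d (-2.19 ± 0.20, adjusted p = 3.75e-06). PYCR1, of proline synthesis, stood at 49.8, 76.1 and 51.1 CPM at 0 h and 7.78, 8.77 and 7.13 CPM at 2 d (-2.89 ± 0.27). ASNS, asparagine synthetase, stood at 52.3, 41.1 and 52.3 CPM at 0 h and 7.78, 9.90 and 8.73 CPM at 2 d (-2.46 ± 0.25), and SRM, spermidine synthase, fell with a log2 fold change of -1.99 ± 0.25. No member was called higher without 0 h replicate 1, without any one 2 d library, with no filter on low counts or with an offset for GC content and length.

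Enzymes that charge tRNAs counted 13 of 20 tested members lower and 1 higher, with a median of -0.65. FARSA and FARSB, the 2 chains of the phenylalanine enzyme, fell with a log2 fold change of -1.70 ± 0.23 and -1.35 ± 0.16, and LARS and IARS, for leucine and isoleucine, with -1.04 ± 0.13 and -1.01 ± 0.17. WARS, the tryptophan enzyme, which interferon also induces, rose by 0.44 ± 0.14 (adjusted p = 0.0273). That call ended without 0 h replicate 1 (adjusted p = 0.0729), 4 h replicate 2 (0.0504), 2 d replicate 1 (0.0675), 2 d replicate 2 (0.0778) or 2 d replicate 3 (0.0784), with the GC and length offset (0.0574) and with no filter on low counts (0.145).

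Stress response genes counted 10 of 26 tested members lower and 3 higher, with a median of -0.35. SLC7A5, an importer of large amino acids, and TRIB3, a pseudokinase of the integrated stress response, fell with a log2 fold change of -1.64 ± 0.20 and -1.53 ± 0.21. ATF4, the central factor of that response, stood at 596, 717 and 567 CPM at 0 h and 393, 404 and 446 CPM at 2 d (-0.60 ± 0.19, adjusted p = 0.026), and its call ended without 0 h replicate 2 (-0.49, adjusted p = 0.0552), 2 d replicate 1 (0.092) or 2 d replicate 2 (0.0698). DDIT3, CHOP, was not called (26.2, 31.9 and 22.4 CPM at 0 h and 19.8, 21.5 and 20.7 CPM at 2 d). SLC7A11, the cystine importer, rose by 1.06 ± 0.20. VLDLR rose by 0.55 ± 0.18 (adjusted p = 0.0287), and its value was 0.16 with the GC and length offset (adjusted p = 0.493). It was no longer called without 0 h replicate 1 (0.0905 adjusted p), 0 h replicate 2 (0.0931), 2 d replicate 1 (0.115) or 2 d replicate 2 (0.0651), or with library totals in place of TMM (0.0526). Heat shock proteins and chaperonins counted 16 of 22 tested members lower and 0 higher, with a median of -0.88. HSPD1, the mitochondrial chaperonin HSP60, stood at 737, 529 and 645 CPM at 0 h and 232, 269 and 257 CPM at 2 d (-1.33 ± 0.16), its partner HSPE1 fell with a log2 fold change of -1.92 ± 0.27, and TRAP1, the mitochondrial HSP90, with one of -1.46 ± 0.19. HSPB1 fell with a log2 fold change of -1.35 ± 0.37 (adjusted p = 0.0116, and 0.0515 without 2 d replicate 2).

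**Figure D4:**
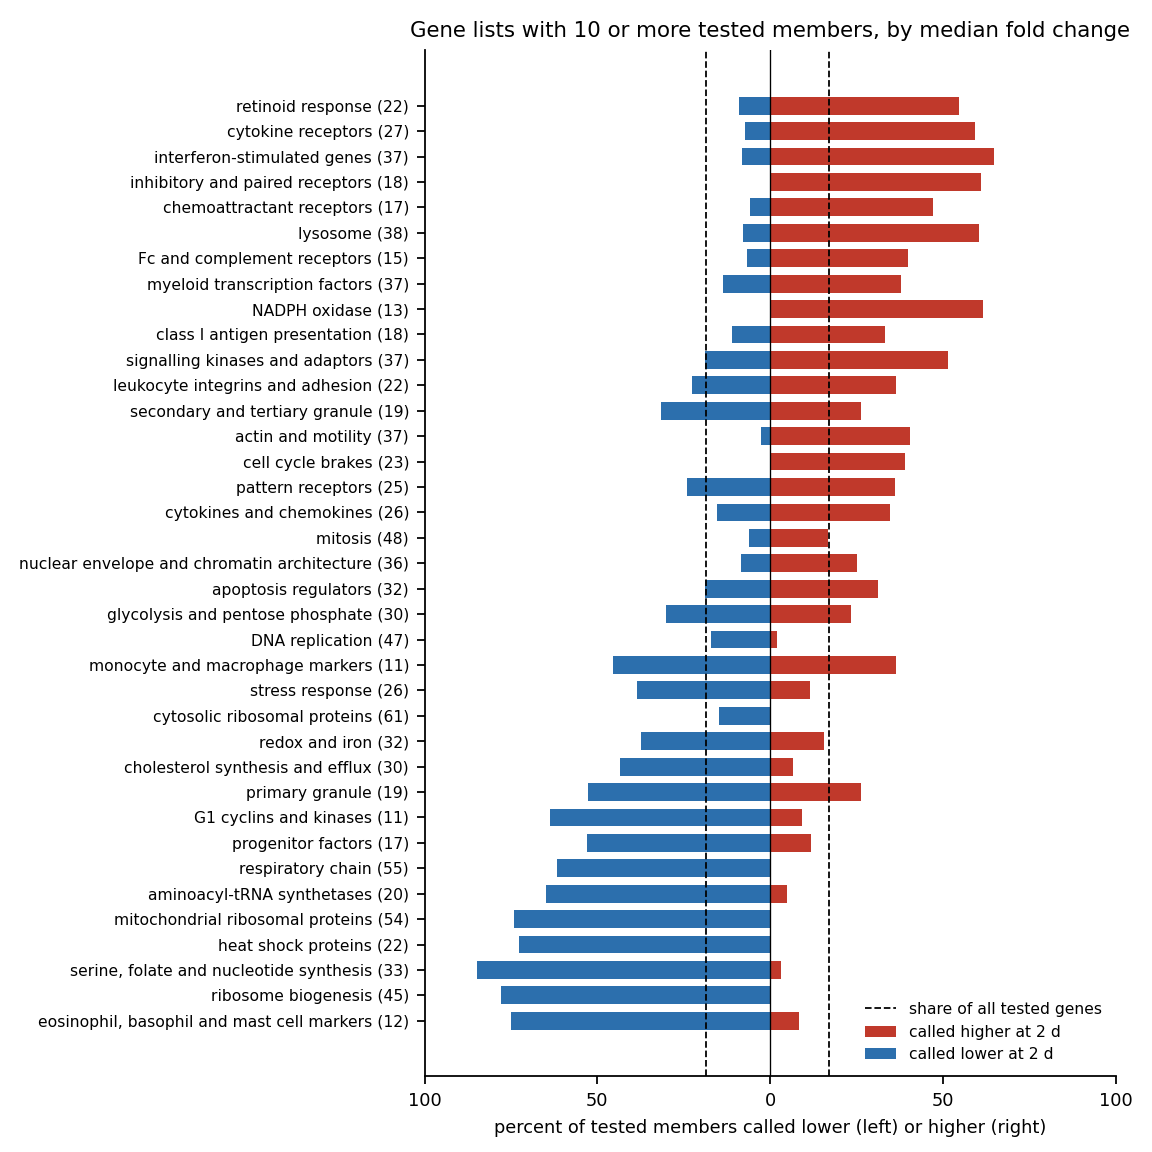
Percent of the tested members of each gene list (number tested in brackets) called higher (red, right) or lower (blue, left) at 2 d, for lists with 10 or more tested members, ordered by median log2 fold change; dashed lines mark the shares of all tested genes, 16.9% higher and 18.7% lower. Retinoid response, cytokine receptors and interferon-stimulated genes are at the top, and ribosome biogenesis (35 of 45 lower) and eosinophil, basophil and mast cell markers (9 of 12 lower) at the bottom.

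Cholesterol genes counted 13 of 30 tested members lower and 2 higher, with a median of -0.52. LSS, lanosterol synthase, stood at 163, 223 and 169 CPM at 0 h and 66.4, 70.6 and 65.9 CPM at 2 d (-1.45 ± 0.16), CYP51A1, the next enzyme of the pathway, fell with a log2 fold change of -1.31 ± 0.19, and SCD, which desaturates fatty acids, with -1.56 ± 0.22. ABCA1, which exports cholesterol, stood at 4.13, 3.0 and 4.67 CPM at 0 h and 25.6, 17.5 and 18.4 CPM at 2 d and rose (2.38 ± 0.36, adjusted p = 0.000256). NR1H3, the sterol receptor LXR alpha, rose by 0.98 ± 0.34 (adjusted p = 0.0367). That call ended without any one of 7 libraries, with adjusted p from 0.0525 without 4 h replicate 1 to 0.115 without 0 h replicate 3. The count higher was then 1. Without the 3 libraries that stand apart 20 members (66.7%, against 24% of all genes) were lower in place of 13 (43.3%, against 18.7%).

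Glycolysis and the pentose phosphate pathway went both ways, with 7 of 30 tested members higher, 9 lower and a median of -0.15. FBP1, which runs glycolysis in reverse, stood at 15.6, 20.3 and 16.6 CPM at 0 h and 159.8, 159 and 179 CPM at 2 d (3.24 ± 0.21, adjusted p = 1.4e-07). SLC2A5, the fructose carrier, stood at 57.1, 92.4 and 66.9 CPM at 0 h and 555, 533 and 581 CPM at 2 d (2.95 ± 0.24, adjusted p = 1.15e-06). PGD, an enzyme of the pentose phosphate pathway that makes NADPH, stood at 353, 276 and 354 CPM at 0 h and 984, 1046 and 937 CPM at 2 d (1.59 ± 0.17, adjusted p = 1.14e-05). HK3, the hexokinase of myeloid cells, rose by 1.41 ± 0.33 and TKT, transketolase, by 0.72 ± 0.17, the latter not called with the GC and length offset (0.35, adjusted p = 0.14). LDHA, lactate dehydrogenase, stood at 634, 433 and 591 CPM at 0 h and 229, 254 and 242 CPM at 2 d and fell (-1.19 ± 0.17, adjusted p = 0.000182).

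Lysosomal genes counted 23 of 38 tested members higher and 3 lower (7.89%, against 18.7% of all genes), with a median of 0.73. Without the 3 libraries that stand apart 5 were lower (13.5%, against 24%). Beyond CTSD and GRN, TFEB, the factor that switches on lysosomal genes, stood at 8.08, 12.6 and 7.30 CPM at 0 h and 58.8, 53.1 and 54.4 CPM at 2 d (2.57 ± 0.25, adjusted p = 7.6e-06). CD68, a glycoprotein of macrophage lysosomes, stood at 66.8, 42.7 and 64.5 CPM at 0 h and 268, 281 and 247 CPM at 2 d (2.20 ± 0.21, adjusted p = 4.9e-06). LIPA, acid lipase, fell with a log2 fold change of -1.06 ± 0.31 (adjusted p = 0.0164). It was no longer called without 0 h replicate 1 (0.0607 adjusted p), 0 h replicate 3 (0.0717) or 2 d replicate 2 (0.0503). MAN2B1, a lysosomal mannosidase, fell with a log2 fold change of -0.73 ± 0.20 (adjusted p = 0.013, and 0.054 without 2 d replicate 3). LAMP1, the main membrane protein of lysosomes, was not called (494, 281 and 450.1 CPM at 0 h and 439, 439.5 and 386 CPM at 2 d, adjusted p = 0.878). TCACGTGA, the extended element that TFEB binds, was in 5 of 25 promoters of this list (20%) against 186 of the 9351 promoters of tested genes. Among genes that rose it was in 42 of 1587 promoters. The share describes the list, whatever the call of its members, and not the change at 2 d. Whether TFEB had a part in the rise was not tested.

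Actin and motility genes counted 15 of 37 tested members higher and 1 lower, with a median of 0.29, and 2 were lower with the GC and length offset. PLEK, pleckstrin, stood at 175, 115 and 171 CPM at 0 h and 696, 714 and 684 CPM at 2 d (2.18 ± 0.18, adjusted p = 1.23e-06). LSP1, an actin-binding protein of leukocytes, stood at 233, 378 and 297 CPM at 0 h and 1107, 1074 and 1085 CPM at 2 d (1.85 ± 0.23, adjusted p = 5.52e-05). WIPF1, a partner of the Wiskott-Aldrich protein, and DOCK8, an activator of CDC42, rose by 1.58 ± 0.25 and 1.19 ± 0.22, while TAGLN2, transgelin-2, fell with a log2 fold change of -0.60 ± 0.16. Nuclear envelope and chromatin architecture genes, which bear on the lobed nucleus of neutrophils, counted 9 of 36 tested members higher (25%, against 16.9% of all genes). They counted 3 lower (8.33%, against 18.7%), with a median of 0.18. Without 0 h replicate 2, 5 were lower (13.9%, against 18.7%), and without the 3 libraries that stand apart 7 (19.4%, against 24%). LBR, the lamin B receptor, stood at 181, 125 and 173 CPM at 0 h and 609, 559.6 and 520.2 CPM at 2 d (1.82 ± 0.22, adjusted p = 3.92e-05). LMNB1, lamin B1, stood at 174, 119 and 171 CPM at 0 h and 158, 159.8 and 137 CPM at 2 d and was not called (-0.03 ± 0.18, adjusted p = 0.909), and its sign turned with library totals in place of TMM (0.026) and without 0 h replicate 1 (0.06), 0 h replicate 3 (0.05) or 2 d replicate 3 (0.04). PADI2, which citrullinates histones, and STAG1, of cohesin, rose by 1.17 ± 0.17 and 1.01 ± 0.25, and SUN1, EMD and BANF1, of the envelope, fell with a log2 fold change of -1.01 ± 0.21, -0.80 ± 0.16 and -0.76 ± 0.21. The call of BANF1 ended without 2 d replicate 1 (adjusted p = 0.0535), and with the GC and length offset and without 0 h replicate 2 (-0.42, adjusted p = 0.0667).

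Regulators of apoptosis counted 10 of 32 tested members higher and 6 lower, with a median of 0.05 against -0.02 over all genes. Of all tested genes 16.9% were higher and 18.7% lower, so the share lower was close to that of all genes. BCL2, which holds off cell death, stood at 57, 47.6 and 57.7 CPM at 0 h and 22.8, 21.5 and 18.2 CPM at 2 d and fell (-1.37 ± 0.16, adjusted p = 3.36e-05). MCL1 and BCL2A1, relatives with the same role, rose by 0.98 ± 0.23 and 0.97 ± 0.17, and MCL1 stood at 115, 73.4 and 132 CPM at 0 h and 235, 205 and 190.4 CPM at 2 d. PMAIP1, NOXA, which opposes MCL1, stood at 12.1, 6.72 and 13.1 CPM at 0 h and 67.6, 75.8 and 63.2 CPM at 2 d (2.69 ± 0.26, adjusted p = 5.44e-06), and APAF1 and CASP9, of the apoptosome, rose by 1.53 ± 0.33 and 1.37 ± 0.15. TNFRSF10B, a death receptor, and BNIP3 fell with a log2 fold change of -1.28 ± 0.18 and -0.90 ± 0.16. Among the members named here, those that block death and those that favour it were found on both sides.

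Redox and iron genes counted 12 of 32 tested members lower and 5 higher (15.6%, against 16.9% of all genes), with a median of -0.41. With the GC and length offset 8 were higher (25%, against 15.5%). PRDX1, a peroxiredoxin, stood at 201, 145 and 167 CPM at 0 h and 33.8, 38.5 and 33.7 CPM at 2 d (-2.27 ± 0.18, adjusted p = 9.69e-07). SOD1, the cytosolic superoxide dismutase, stood at 209, 212 and 188 CPM at 0 h and 63.8, 74.2 and 74 CPM at 2 d (-1.52 ± 0.15, adjusted p = 8.06e-06). TFRC, the transferrin receptor, fell with a log2 fold change of -1.18 ± 0.25. ALAS1, the first enzyme of heme synthesis, stood at 224, 204 and 208 CPM at 0 h and 529, 546 and 535 CPM at 2 d (1.34 ± 0.14, adjusted p = 1.19e-05), ALAD, the next, rose by 0.89 ± 0.13, and TXNIP, an inhibitor of thioredoxin, by 1.06 ± 0.18.

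Eosinophil, basophil and mast cell markers counted 9 of 12 tested members lower and 1, CCR3, higher, with a median of -1.75 (-1.43 with the GC and length offset), and the summed level of all 17 in the files was 5369 to 7988 CPM at 0 h and 643 to 765 CPM at 2 d. EPX, eosinophil peroxidase, stood at 223, 234 and 274 CPM at 0 h and 60.5, 52.1 and 39.8 CPM at 2 d (-2.26 ± 0.25). RNASE2 stood at 299, 246 and 251 CPM at 0 h and 60.3, 74.7 and 68.4 CPM at 2 d (-1.97 ± 0.17). CLC, the Charcot-Leyden crystal protein, stood at 131, 121 and 115 CPM at 0 h and 68.6, 88.1 and 72.2 CPM at 2 d (-0.68 ± 0.17), and was not called with the GC and length offset (-0.34, adjusted p = 0.15). EPX and RNASE2 and the receptor CCR3 therefore moved in opposite directions, and whether the mix of cells had a part in this was not tested.

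Monocyte and macrophage markers counted 4 of 11 tested members higher (36.4%, against 16.9% of all genes), among them CSF1R, CD68 and CCR2. They counted 5 lower (45.5%, against 18.7%), and CD14 fell most (-2.45 ± 0.20). The median was -0.27. Without 0 h replicate 2 or 2 d replicate 1, 3 were lower (27.3%, against 18.7% and 12.7% of all genes). Their summed level was 264 to 351 CPM at 0 h and 477 to 552 CPM at 2 d. The median was 0.01 with a filter at a mean of 1 CPM and 0 in a fit of the 6 libraries alone. MRC1, MSR1 and C1QB had no read in either group, and CD163, the hemoglobin scavenger receptor of macrophages, had 0.367, 0.0909 and 0.0973 CPM at 0 h and 0, 0 and 0.123 CPM at 2 d. The part of such cells in the other results was not tested.

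Lymphoid markers counted 4 of 7 tested members higher and 0 lower, with a median of 0.86 and a sum of 329.7 to 421 CPM at 0 h and 574 to 662 CPM at 2 d. That sum was mostly CD4, which monocytes also make (321, 243 and 354 CPM at 0 h and 573, 592 and 496 CPM at 2 d, 0.85 ± 0.20). CD3G, CD8B, MS4A1, GZMB and PAX5 had no read in either group. Erythroid and megakaryocyte markers counted 2 of 3 tested members lower, with 11 of 19 without a read, among them the hemoglobin genes HBA1, HBA2 and HBB, and 1 was lower without 0 h replicate 2, 0 h replicate 3 or any one 2 d library. Of the non-blood markers, COL1A1 alone had enough reads to be tested and was not called (0.367, 1.82 and 0.389 CPM at 0 h and 2.14, 1.51 and 2.46 CPM at 2 d, adjusted p = 0.169); without 0 h replicate 2 its log2 fold change was 2.37 with an adjusted p of 0.0248.

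The levels at 4 h and 4 d place the 2 d values in time, as means with no test here, since the comparisons share the 0 h libraries. DHRS3 had 5.73 ± 1.96 CPM at 4 h and 142 ± 23.8 CPM at 4 d, and CD38 had 66.2 ± 15 CPM at 4 h and 83.5 ± 25.7 CPM at 4 d. ID1 had 40.7 ± 13.6 CPM at 4 h and 3.10 ± 0.417 CPM at 4 d, so its level at 2 d lay between those of 4 h and 0 h. CTSD had 1314 ± 536 CPM at 4 h and 21345 ± 2209 CPM at 4 d, above its 2 d level of 11987, 10169 and 10438 CPM at the later time.

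MPO had 39427 ± 9616 CPM at 4 h and 8118 ± 1025 CPM at 4 d, and PRTN3 had 7076 ± 3059.9 CPM at 4 h and 344 ± 69.2 CPM at 4 d, so both were lower at 4 d than in any 2 d library. MKI67 had 312 ± 35.8 CPM at 4 h and 297 ± 15.7 CPM at 4 d, below its 2 d values at both times. MYC had 1803 ± 241 CPM at 4 h and 193 ± 40.9 CPM at 4 d, and its level at 2 d lay between them. CDC25A had 87.5 ± 3.80 CPM at 4 h and 17.9 ± 2.01 CPM at 4 d, and ITGAM had 37.1 ± 3.27 CPM at 4 h and 394 ± 4.56 CPM at 4 d. LTF, already lower at 2 d, had 9.33 ± 1.77 CPM at 4 h and 2.34 ± 0.617 CPM at 4 d.

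**Figure D5:**
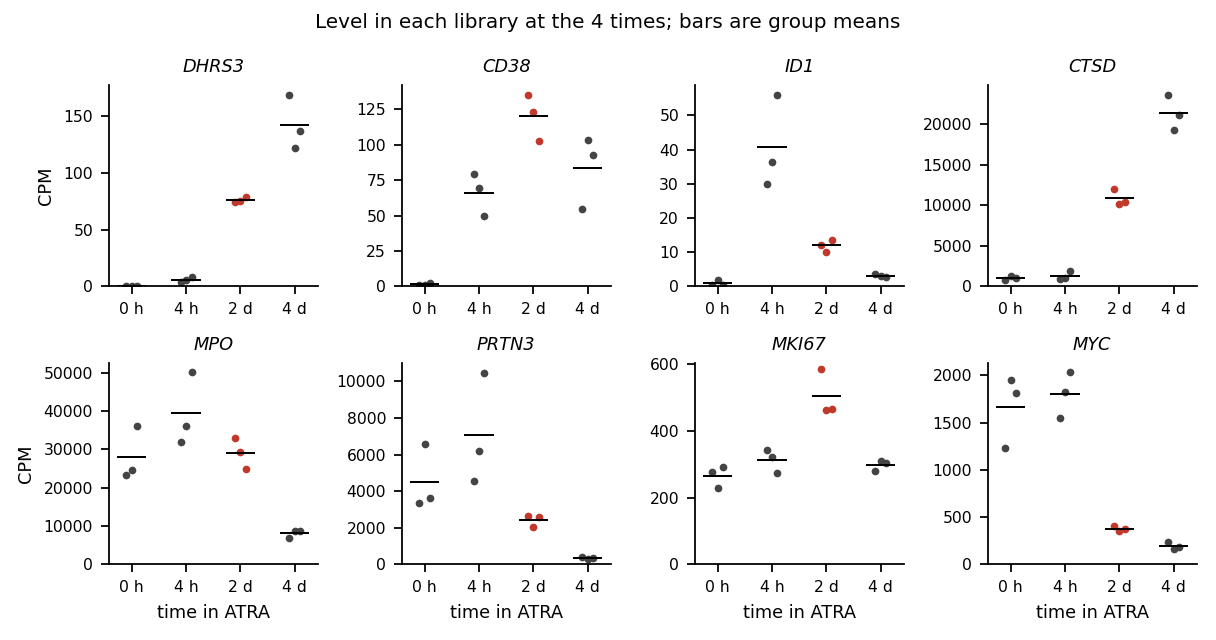
CPM of 8 genes in each of the 3 libraries at 0 h, 4 h, 2 d (red) and 4 d (x axis), with a bar at each group mean; each y axis starts at 0 and has its own scale. DHRS3 and CTSD are higher at 4 d than at 2 d, ID1 is highest at 4 h, MKI67 is highest at 2 d, and MPO and PRTN3 are lowest at 4 d.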

How the data were processed

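RNA was sequenced from HL-60 cells at 4 times, 3 libraries each. Reads per gene are raw counts deposited by the authors; per the submitters' processing notes FastQC, Trim Galore 0.6.7, HISAT2 2.1.0, HTSeq 1.99.2 and the build hg19 were used. Annotation and strand setting: not given in the sources used here. Overlapping, antisense and near-identical genes are therefore uncertain. Reads outside genes (17.11% to 21.62% of reads at 0 h and 2 d), ambiguous reads and multiply aligned reads stayed out of library sizes.

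Counts of all 12 libraries, 7866757 to 13658177 gene reads each, were fitted with edgeR 4.0.16 in R 4.3.3 (filterByExpr, TMM factors, 1 mean per time, 8 residual degrees of freedom), with the two-sided quasi-likelihood test of 2 d minus 0 h and Benjamini-Hochberg adjustment over 12671 genes. The scripts were tested on simulated data. Alternatives used limma 3.58.1, DESeq2 1.42.0, other scalings, filters and thresholds, replicate number as a block, an offset for GC content and length, and each library left out.

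Named genes were the 12 steepest rises and 12 steepest falls of called genes with means from 10 CPM up, without overlap between groups; the 6 largest gains and 6 largest losses in CPM; up to 6 genes in each direction with 3 reads or fewer in one group; in each of 41 gene lists (1228 symbols, 7 not matched in the files) up to 4 called members with the largest change at 5 CPM or more and up to 2 in the opposite direction; and 10 fixed genes. The gains and losses in CPM were likewise ranked among called genes without overlap between groups. Symbols beginning LOC, LINC, MIR, SNOR, RNU or RNA5 and those ending in -AS1 were left out of the rankings. Members named beyond that rule, among them RARA, CYP26A1, NCF4, CAMP, PCNA and CDK1, were chosen after their values were seen. Some genes that the rule names are not reported here. The members and lists were chosen with earlier results of these data known. Promoter sequences came from RefSeq (GRCh38.p14), matched by symbol for 9351 tested genes, and motifs were searched on both strands.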

Additional observations from a re-analysis of the deposited data

How the results depend on the processing

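Of 25 alternative fits, the number of called genes stayed within 1.5 times of 4512 in all, and every gene called both there and in the main result kept its direction; 2441 genes were called throughout. Leaving out 1 library gave 3124 to 4954 calls (1476 to 2342 higher, 1648 to 2638 lower). An adjusted p under 0.01 left 2705 genes (1232 higher, 1473 lower), and a 2-fold minimum 2122 (1042 higher, 1080 lower), because both thresholds are stricter. DESeq2 called 4914 genes and limma-voom 4455. With an offset for GC content and length 4912 were called, 40.1% of them higher against 47.5%, and without the 3 libraries that stand apart (replicate 2 of 0 h, replicate 1 of 4 h, replicate 1 of 4 d) 5857. Of 212 calls among the genes that the naming rule picked, 21 ended under some alternative, 18 of them without 1 library. Calls of genes named beyond that rule, among them CXCR4, ATF4, LCN2 and CLC, also ended under some alternative and are not in these counts.

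Deviations from the group mean correlated at -0.107, -0.443 and -0.631 between same-numbered libraries, and at -0.29 to 0.518 between the others. Each mean is of 3 libraries and includes the library itself, so these values cannot tell whether replicate numbers pair the samples. With replicate number as a block 3605 genes were called, and 4155 with the block and the GC and length offset.

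MPO (0.05) turned to -0.04 with the GC and length offset, -0.008 with that offset and the block, -0.04 without the 3 libraries, -0.065 without 0 h replicate 1, -0.04 without 0 h replicate 2, -0.05 without 2 d replicate 1 and -0.21 with the offset and without 0 h replicate 2, an alternative chosen after seeing the data. LMNB1 (-0.03) turned to 0.026 with library totals; without 0 h replicate 1 or 3, or replicate 3 of 2 d, it was 0.062, 0.051 or 0.039. Leaving out 1 library gave -0.065 to 0.276 for MPO and -0.19 to 0.062 for LMNB1. The cause was not tested. Depth limits genes with a few reads, for which bounds or ratios with counting intervals are given.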

Other observations

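Some gene families outside the lists were chosen after their values were seen. Importers of mitochondrial proteins (TIMM and TOMM genes) counted 18 of 23 tested members lower and 0 higher, with a median log2 fold change of -0.78, and TIMM13 fell most (-1.37 ± 0.21, from 356 ± 40.6 CPM at 0 h to 138 ± 0.560 CPM at 2 d). Proteasome subunits counted 22 of 36 lower and 0 higher (median -0.53), with PSMB5, a catalytic subunit, at 110.3, 102 and 98.9 CPM at 0 h and 40.2, 48.5 and 44.6 CPM at 2 d. Host transcripts of small nucleolar RNAs counted 13 of 19 lower and 0 higher (median -0.82), and SNHG4 gave -2.45 ± 0.31. TRIM ubiquitin ligases counted 14 of 35 higher and 2 lower (median 0.44). Zinc finger genes named ZNF counted 53 of 438 higher and 30 lower, and SLC transporters 34 of 208 higher and 50 lower, against 16.9% and 18.7% of all tested genes.

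Single genes chosen in the same way included surface and secreted proteins. THBS1, thrombospondin-1, stood at 2.85, 2.18 and 2.92 CPM at 0 h and 258, 207 and 196 CPM at 2 d (6.37 ± 0.29, adjusted p = 8.38e-09). MERTK, a receptor that takes up dying cells, stood at 0.826, 0.273 and 0.389 CPM at 0 h and 11.5, 11.7 and 13.5 CPM at 2 d (4.59 ± 0.27), and THBD, thrombomodulin, at 3.03, 1.82 and 3.21 CPM at 0 h and 70, 49.7 and 47.8 CPM at 2 d (4.38 ± 0.25). CD1D, which presents lipids, rose by 4.09 ± 0.20, and FFAR2, a receptor of short-chain fatty acids, by 3.47 ± 0.25. NCOA3 and NCOA2, co-activators of nuclear receptors, rose by 3.33 ± 0.24 and 2.86 ± 0.55, and NCOA3 stood at 17.3, 14.7 and 20.6 CPM at 0 h and 192, 168 and 170.5 CPM at 2 d. SAMHD1, which degrades nucleotides, stood at 29.3, 6.82 and 29.3 CPM at 0 h and 209.7, 188 and 138 CPM at 2 d (3.03 ± 0.48), lowest at 0 h in replicate 2, and the value was 2.61 without that library. VIM, vimentin, stood at 49.7, 43.5 and 40 CPM at 0 h and 7.01, 9.75 and 7.87 CPM at 2 d (-2.43 ± 0.17), and LGALS1, galectin-1, at 92.3, 88.7 and 61.4 CPM at 0 h and 12.4, 14.7 and 15 CPM at 2 d (-2.52 ± 0.21), with no overlap between the groups in either.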
